A study of Mus musculus with 18 samples.

Results

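The proximal colon was compared with the distal colon in mice that lack Rab11-FIP2 (FIP2 knockout), across all genes. The comparison rests on 6 of the series' 18 libraries, chosen by their labelled genotype and segment: 3 from the proximal and 3 from the distal colon of the knockout. The libraries hold polyadenylated RNA of colonic epithelial cells, which were teased from fresh, untreated tissue with forceps in cold buffer with 30 mM EDTA. The remaining 12 libraries come from the same segments, 3 each, of wild-type mice (labelled BL6) and of mice lacking Rab11-FIP1 (FIP1 knockout), and they serve here only to show where the FIP2 knockout differs. The labels give no age, sex or allele design, and they do not say that the 3 libraries of a group are separate mice, so a p-value may measure technical spread.

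Rab11-FIP2 is an adaptor that links the small GTPase Rab11 to the motor myosin Vb on recycling endosomes, from which cargo travels back to the apical membrane of epithelial cells. The 2 ends of the colon arise from different parts of the embryonic gut and carry different HOX codes, the clustered transcription factor genes that set position along the body axis. Proximal colon borders the ileum and shares some of its uptake of lipids and bile acids. Distal colon dries and stores stool and is known for sodium uptake through the aldosterone-regulated channel ENaC.

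The 6 libraries held 12408843 to 22062300 counts. Of 54532 genes, 17692 passed the filter on low counts and were tested. Levels are given as CPM, counts scaled to a library's total over the tested genes and adjusted by its TMM scaling factor. Rab11fip2 (chromosome 19, 59902884 to 59943654, minus strand, GRCm38) stood at 2.48, 3.91 and 4.18 CPM in the distal libraries and at 4.28, 3.43 and 3.31 CPM in the proximal ones. Wild type averaged 7.38 CPM distally and 6.61 CPM proximally; the deleted part is not given in the labels, so counts from the rest of the gene check nothing. The epithelial marker list (Epcam, keratins and others) summed to 14868 to 17566 CPM in proximal and 18130 to 19377 CPM in distal libraries, and none of its 9 members was called. The first principal component, with 53.4% of the variance, separated the segments; the second, with 20.2%, set library 1 of both segments apart from libraries 2 and 3.

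Differences are given as log2 of proximal over distal, from edgeR's quasi-likelihood test, with p-values adjusted over all tested genes by the Benjamini-Hochberg method. That test gives no standard error (SE). The SE printed here is the absolute difference divided by the square root of the test's F value. It is approximate, and unreliable where a segment has hardly any counts or the difference is very small. Genes with an adjusted p below 0.05 count as called. By this rule 882 genes (4.99%) were higher in the proximal colon of the FIP2 knockout and 794 (4.49%) were lower, 9.47% of all tested genes in sum. Of these, 683 higher and 535 lower genes differed by more than 2-fold, and 180 and 139 by more than 8-fold. The proximal and distal libraries did not overlap for 26.6% of tested genes. The total of 1676 called genes became 1069 without proximal library 3. This test does not pair the libraries, and with libraries paired by number the total was 2138. The median difference over all tested genes was -0.00688 on the log2 scale.

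**Figure D1:**
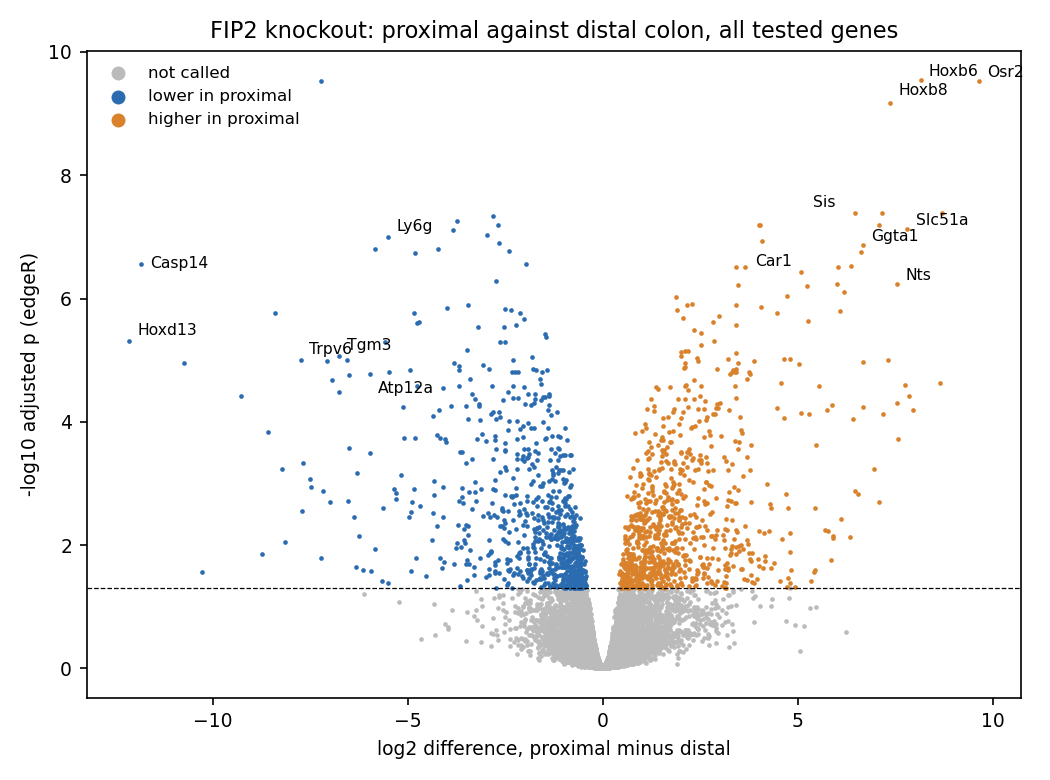
Each point is a gene tested between proximal and distal colon of the FIP2 knockout (3 libraries each); the x axis is the log2 difference, proximal minus distal, and the y axis is the negative log10 of the edgeR adjusted p. Orange points are the 882 genes called higher in proximal colon, blue points the 794 called lower, and Osr2 and Hoxb6 stand at the top right.

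HOX genes were split between the segments. Hoxb6 (chromosome 11, 96292476 to 96301569, plus strand) stood at 87.2, 87.2 and 107 CPM in the proximal libraries and at 0.258, 0.180 and 0.565 CPM in the distal ones. Every proximal library was above every distal one, and the difference was 8.15 ± 0.39 (SE; edgeR adjusted p 2.87e-10). Its neighbours in the HOXB cluster followed the same order: Hoxb8 rose by 7.38 ± 0.40, Hoxb5 by 7.16 ± 0.51, Hoxb7 by 7.08 ± 0.53 and Hoxb4 by 6.63 ± 0.55. Hoxb3 rose by 6.35 ± 0.55, although 52.9% of its exonic length is shared with other annotated genes and its counts are less certain. Hoxb9 (0.88 ± 0.15), named here after its values were seen, rose far less, from 32.4, 36.2 and 36.3 CPM distally to 67.8, 60.3 and 65.0 CPM proximally.

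The last gene of that cluster ran the other way. Hoxb13 stood at 113, 184 and 134 CPM in distal libraries and at 1.22, 7.12 and 1.22 CPM in proximal ones, a difference of -5.48 ± 0.66 (edgeR adjusted p 1.55e-05). Hoxd13, at the end of the HOXD cluster (chromosome 2, 74668310 to 74671599, plus strand), was at 34.3, 42.3 and 30.8 CPM distally and had no count in any proximal library. Against a floor of 3 counts over the proximal group it was at least 539-fold lower. Among the 25 HOX genes tested of 39, 10 were called higher and 5 lower, and the median difference was -0.18. The 14 others were too low to test, and a gene present in 1 segment alone passed the filter through that segment. By cluster, HOXB had 7 higher and 1 lower, HOXD 3 higher and 3 lower, and HOXA 1 lower. The remaining called members were named after their values were seen: Hoxd8 (5.46 ± 0.85), Hoxd3 and Hoxd4 were higher, and Hoxd11 (-4.97 ± 1.01) and Hoxa6 (-1.47 ± 0.44) were lower. Hoxd3 and Hoxd4 had no distal count, and at 0.291 to 0.930 CPM per proximal library they are low. Hoxd10 was lower too (-3.47 ± 0.90, adjusted p 0.0171), but that call was lost without distal library 2 (adjusted p 0.0773) and without proximal library 1 (0.0560) or 2 (0.0748). Hoxa6 kept its call only when proximal library 2 was the one left out, with adjusted p otherwise of up to 0.192. With 1 library left out 3 or 4 lower members remained called, and 3 without distal library 2 or proximal library 1.

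**Figure D2:**
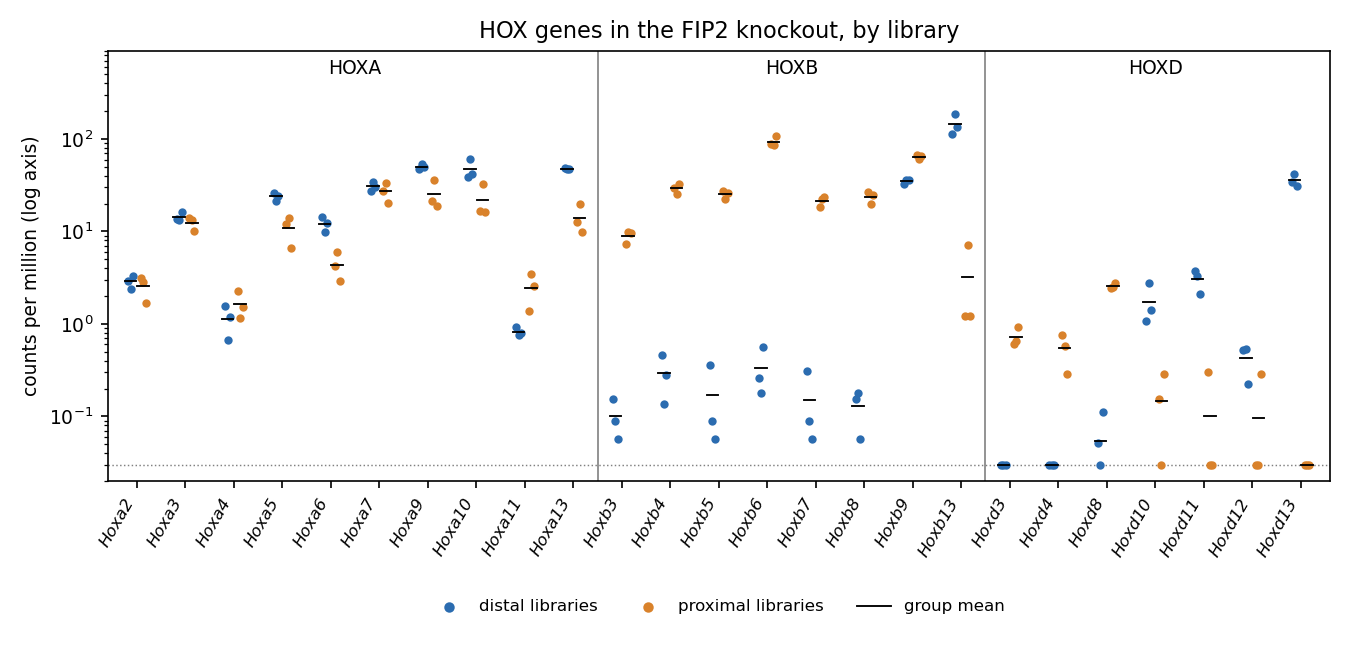
Points are CPM values of single libraries (log axis, values under 0.03 drawn at 0.03) for every tested HOX gene, ordered by cluster and position number, with distal libraries in blue, proximal libraries in orange and a bar at each group mean. Hoxb3 to Hoxb8 sit far lower in distal than in proximal libraries, and Hoxb13 and Hoxd13 far lower in proximal ones.

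Regional transcription factors outside the HOX clusters added single large differences. Osr2, a zinc finger factor of embryonic patterning (chromosome 15, 35296098 to 35303305, plus strand), had 49.0, 37.0 and 54.4 CPM in proximal libraries and 0.103, 0 and 0.0565 CPM in distal ones. That was the largest rise among the called protein-coding genes averaging at least 1 CPM, at 9.64 ± 0.49 (edgeR adjusted p 2.96e-10). Tbx3, a T-box factor, rose by 6.03 ± 0.52 from 0.170 to 0.465 CPM distally to 16.5 to 26.4 CPM proximally. Isx, the intestinal homeobox factor that restrains carotenoid uptake, rose by 2.94 ± 0.40, and Cdx2, the master regulator of intestinal identity, by 1.10 ± 0.18, from 73.1 ± 3.63 to 156 ± 13.1 CPM (SD, n = 3). Foxa2 was lower (-1.20 ± 0.27), a call lost without proximal library 3 (adjusted p 0.0535). In all, 5 of 28 tested factors were higher and 1 lower (3 lower with libraries paired by number), with a median of 0.10. Gata4, a factor of small intestine, was below 1.7 CPM in all 6 libraries.

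Promoter sequences are shown for 3 of the largest rises and 1 of the largest falls, each from a different functional group. Their upstream letters can thus be set beside the values. The genes shown are those whose searched promoter held any of the letters below. The promoters of Slc51a, Cyp4b1, Hoxd13, Casp14, Tgm3 and Mptx1 were searched as well, held none of them and are not shown. Each run is the 250 bases before the RefSeq start of the gene in GRCm38.p6, 5′ to 3′ on the gene's own strand, and capitals mark matches on either strand to the letters searched. Hoxb8 lies at chr11:96281655-96281904 on the plus strand, Sis at chr3:72967864-72968113, Nts at chr10:102490419-102490668 and Trpv6 at chr6:41636406-41636655, these last on the minus strand.
Hoxb8: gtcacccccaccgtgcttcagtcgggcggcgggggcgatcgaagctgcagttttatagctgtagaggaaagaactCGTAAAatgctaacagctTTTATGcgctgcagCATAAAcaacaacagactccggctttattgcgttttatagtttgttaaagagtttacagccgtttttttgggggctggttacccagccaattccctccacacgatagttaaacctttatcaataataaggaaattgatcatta
Sis: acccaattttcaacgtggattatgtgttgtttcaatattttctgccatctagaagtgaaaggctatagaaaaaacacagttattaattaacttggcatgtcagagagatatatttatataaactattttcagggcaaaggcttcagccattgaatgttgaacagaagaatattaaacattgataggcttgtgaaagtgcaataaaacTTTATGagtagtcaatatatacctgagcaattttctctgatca
Nts: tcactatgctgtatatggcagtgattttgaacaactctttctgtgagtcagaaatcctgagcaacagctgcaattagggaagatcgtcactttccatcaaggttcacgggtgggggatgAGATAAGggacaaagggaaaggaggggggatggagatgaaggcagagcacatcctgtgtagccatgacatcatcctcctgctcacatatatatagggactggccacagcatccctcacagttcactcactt
Trpv6: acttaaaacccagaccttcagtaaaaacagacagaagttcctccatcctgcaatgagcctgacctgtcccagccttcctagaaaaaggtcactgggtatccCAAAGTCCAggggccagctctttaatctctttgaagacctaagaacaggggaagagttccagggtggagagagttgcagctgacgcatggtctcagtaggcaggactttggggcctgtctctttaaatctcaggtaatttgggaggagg
For the CDX factors the core letters TTTATG were searched, and Hoxb8 holds them at -157 and -143 relative to the start. Sis, the gene of sucrase-isomaltase, holds the same letters at -43. For posterior HOX factors the core letters were TTTACG, found in Hoxb8 at -175. For GATA factors they were AGATAAG, found at -131 in Nts, the gene of neurotensin. For HNF4 they were CAAAGTCCA, found at -149 in Trpv6, the gene of an apical calcium channel. Windows matched 11656 of 17687 tested gene symbols. The CDX letters were in 8.29% of the windows of genes called higher, 9.12% of those called lower, 6.66% of tested genes and 10.8% of all 32851 windows. The GATA letters were in 3.2%, 2.06%, 1.94% and 2.74% of the same sets, the HNF4 letters in 0.948%, 1.18%, 0.398% and 0.384%, and the HOX letters in 1.3%, 1.76%, 3.03% and 2.61%. A match describes letters only.

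Bile acid and lipid uptake differed between the segments gene by gene. Slc51a, the basolateral bile acid exporter subunit (chromosome 16, 32474504 to 32487879, minus strand), had 59.9, 40.8 and 65.2 CPM proximally and 0.103, 0 and 0.678 CPM distally, a rise of 7.81 ± 0.60 (edgeR adjusted p 7.41e-08). Slc10a2, the apical sodium-dependent bile acid transporter that works with it, rose by 5.04 ± 0.59, from 5.84, 19.2 and 11.3 CPM to 509, 225 and 469 CPM. Proximal libraries were above distal ones for both, with proximal library 2 the lowest of the 3 each time. The fatty acid binding protein gene Fabp2 rose by 1.86 ± 0.37. The sterol efflux transporters went down together: Abcg5 was at 21.8, 35.1 and 29.7 CPM distally and at 1.38, 1.62 and 3.54 CPM proximally (-3.70 ± 0.44), and Abcg8 differed by -2.77 ± 0.49. Fabp6, the ileal bile acid binding protein gene, was also lower (-2.19 ± 0.36), at 23.1, 13 and 17.8 CPM distally and 2.14, 4.92 and 4.71 CPM proximally. Of 18 tested members of the bile acid, cobalamin and lipid list, 7 were higher and 5 lower, with a median of 0.50. In wild type the same members had 10 higher and 0 lower, with a median of 1.60, and whether the 2 genotypes differ over the list was not tested. Gene by gene, the segment difference was called different from wild type for 2 members, both lower, beside 0.328% of all tested genes. The 5 became 3 when any 1 of the 6 libraries was left out, since Apob (-0.85 ± 0.26) and Apobec1 (-0.80 ± 0.24), named after their values were seen, were close to the threshold. Fgf15, the ileal hormone induced by bile acids, had at most 0.0581 CPM in any of the 6 libraries and was not tested.

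Among brush border enzymes more members were called higher than lower proximally, and most were not called. Sis (chromosome 3, 72888557 to 72967863, minus strand), an enzyme typical of small intestine, stood at 15.2, 6.54 and 16.3 CPM against 0.0517, 0.135 and 0.226 CPM distally, a rise of 6.47 ± 0.46 (edgeR adjusted p 4.17e-08). Alpi, intestinal alkaline phosphatase, rose by 2.63 ± 0.52, Tmigd1 by 2.49 ± 0.40, the aminopeptidase Enpep by 2.61 ± 0.57 and the glutathione-cleaving enzyme Ggt1 by 2.40 ± 0.50. Of 23 tested members 6 were higher and 1 lower (3 lower with libraries paired by number), with a median of 0.07. The lower one, trehalase (Treh, -3.67 ± 1.13, named after its values were seen), was not called when any 1 of the 6 libraries was left out. Few nutrient transporters were called, with 1 of 21 higher and 2 lower (3 and 4 with libraries paired by number) and a median of 0.08. That was 14.3% of the list, beside 9.47% of all tested genes. The peptide transporter gene Slc15a1 was at 75.9, 122 and 114 CPM distally and 5.66, 14.2 and 9.70 CPM proximally, a difference of -3.39 ± 0.42. The nucleoside transporter gene Slc28a2 rose by 2.59 ± 0.39, and the amino acid transporter gene Slc6a20a was lower by -2.29 ± 0.41.

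Xenobiotic metabolism held the most called genes of any list by number, with 24 of 52 tested members higher in the proximal colon and 5 lower, and a median of 0.60. That was 55.8% of its members, beside 9.47% of all tested genes. By share called, HOX genes (60%), T cell markers (65%), the bile acid and lipid list (66.7%) and aquaporins (75%) stood above it. Leaving out 1 library gave 18 to 24 higher members, and 2 lower ones without distal library 3 or proximal library 1 or 3. Cyp2c66, a cytochrome P450, had 7.11, 10.8 and 13 CPM proximally and 0, 0 and 0.0565 CPM distally (8.70 ± 0.61; edgeR adjusted p 4.17e-08). Cyp2c65 rose by 4.72 ± 0.44, from 16.9, 25.3 and 40.9 CPM to 602, 639 and 945 CPM. The glucuronosyltransferase Ugt2b5 rose by 6.01 ± 0.55, the retinal dehydrogenase Aldh1a1 by 4.48 ± 0.45, the carboxylesterase Ces1f by 2.41 ± 0.28, Cyp3a25 by 7.32 ± 0.79 and the fatty acid hydroxylase Cyp4b1 by 6.67 ± 0.78. Cyp3a44 rose by 7.85 ± 0.98, with 13.5, 2.07 and 13.2 CPM proximally. Many of these genes have near-identical copies in clusters, so their counts may be divided between copies. The carboxylesterase Ces2f ran against the list, at 32.7, 56.5 and 33.0 CPM distally and 0.688, 0.777 and 0.639 CPM proximally (-5.85 ± 0.48). It is not on the list, whose lower members were Gsta3 (-3.11 ± 0.58), Adh1 (-2.86 ± 0.40), Cyp2d34, Sult2b1 and Cyp2f2, the first 4 named after their values were seen. Cyp2d34, Sult2b1 and Cyp2f2 each lost the call without distal library 3 or proximal library 1 or 3.

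Genes of fatty acid oxidation and targets of the PPAR nuclear receptors were higher proximally in 14 of 35 tested cases and lower in 1, with a median of 0.35. Pdk4, which turns fuel use from glucose to fat (chromosome 6, 5483351 to 5496309, minus strand), stood at 19.3, 15.9 and 22.8 CPM proximally and at 0.982, 1.26 and 1.24 CPM distally. The proximal libraries were all more than 10-fold above the distal ones, and the rise was 4.05 ± 0.40 (edgeR adjusted p 1.4e-06). The peroxisomal thiolase Acaa1b rose by 6.42 ± 0.92. The receptors themselves rose, Ppara by 1.73 ± 0.27 and Pparg by 1.25 ± 0.20, and the lipid droplet protein gene Cidec rose by 2.16 ± 0.37. The lower member was the coactivator gene Ppargc1a (-0.85 ± 0.25, named after its values were seen), and it was called without distal library 1 but not without any other. The 14 became 7 without proximal library 3 and 8 without distal library 1.

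Of sodium transport genes, more were called lower than higher in the proximal colon. Atp12a, the colonic proton-potassium pump (chromosome 14, 56365068 to 56388550, plus strand), stood at 947, 1518 and 1106 CPM distally and at 7.41, 43.6 and 5.64 CPM proximally, a difference of -5.98 ± 0.73 (edgeR adjusted p 1.71e-05). The alpha subunit of ENaC, Scnn1a, was at 83.0, 74.6 and 84.6 CPM distally and 25.4, 28.7 and 28.5 CPM proximally (-1.55 ± 0.19), and the gamma subunit Scnn1g differed by -3.0 ± 0.46 at distal levels of 2.03 to 2.79 CPM. The beta subunit Scnn1b was not called: its 3 proximal libraries (6.67 to 6.97 CPM) lay above the distal ones (4.69 to 5.68 CPM), with a difference of 0.42 ± 0.20. Fxyd4, a regulator of the sodium pump, was lower (-2.03 ± 0.44), and the potassium channel Kcnq1 was higher (0.78 ± 0.15). Of 20 tested members of the sodium and aldosterone list 6 were lower and 2 higher, with a median of -0.25. The other called members were Tsc22d3, Hsd11b2 and, on the higher side, the kinase gene Sgk1 (1.26 ± 0.32), the last 2 named after their values were seen. Tsc22d3 was lost without proximal library 1, Hsd11b2 without that or distal library 3, and Sgk1 without distal library 1 or proximal library 3. The 6 became 4 without proximal library 1, and the 2 became 1 without distal library 1 or proximal library 3.

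Among genes of anion and bicarbonate transport, 6 of 24 were higher and 4 lower, with a median of 0.21. Car1, a cytosolic carbonic anhydrase (chromosome 3, 14766216 to 14808368, minus strand), had 15404, 13371 and 18282 CPM proximally and 293, 432 and 663 CPM distally, a rise of 5.08 ± 0.45 (edgeR adjusted p 3.73e-07). Car12 rose by 1.71 ± 0.25 and the secretagogue peptide gene Guca2b by 1.43 ± 0.25. The chloride-bicarbonate exchanger Slc26a3 was lower proximally, at 564, 776 and 588 CPM against 1820, 2093 and 2288 CPM (-1.69 ± 0.34). Membrane-bound Car4 was lower as well (-1.40 ± 0.26), as were the anion channels Best2 (-3.20 ± 0.33) and Ano1 (-1.93 ± 0.25). The 6 higher members became 3 without distal library 1, proximal library 2 or proximal library 3.

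Water channels did not move as a block: of 4 tested, Aqp1 and Aqp11 were higher and Aqp4 was lower (2 lower with libraries paired by number). Aqp11 was lost without distal library 1 or proximal library 3, and Aqp4 was kept only without distal library 1 or proximal library 2. Aqp1 rose by 2.33 ± 0.29, from 7.08, 13.8 and 10.5 CPM distally to 50.4, 56.1 and 51.5 CPM proximally (edgeR adjusted p 2.07e-05). Aqp8 was at 945, 1339 and 1331 CPM distally and 340, 816 and 583 CPM proximally, and although the libraries did not overlap it was not called (-1.06 ± 0.38, adjusted p 0.0965). With the libraries paired by number Aqp8 was called lower (-1.13, adjusted p 0.0280). The calcium channel Trpv6 (chromosome 6, 41620624 to 41636405, minus strand) had 17.8, 36.1 and 35.4 CPM distally and 0, 0.324 and 0.0581 CPM proximally, a difference of -7.74 ± 0.89. The magnesium channel Trpm6 was lower by -2.05 ± 0.33. The manganese exporter Slc30a10 rose by 5.55 ± 0.70, to 25.0, 10.8 and 19.4 CPM from 0.103, 0.629 and 0.396 CPM. Of 22 tested metal-handling genes 2 were higher and 2 lower, or 6 and 3 with libraries paired by number, and 4 were higher without proximal library 2.

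**Figure D3:**
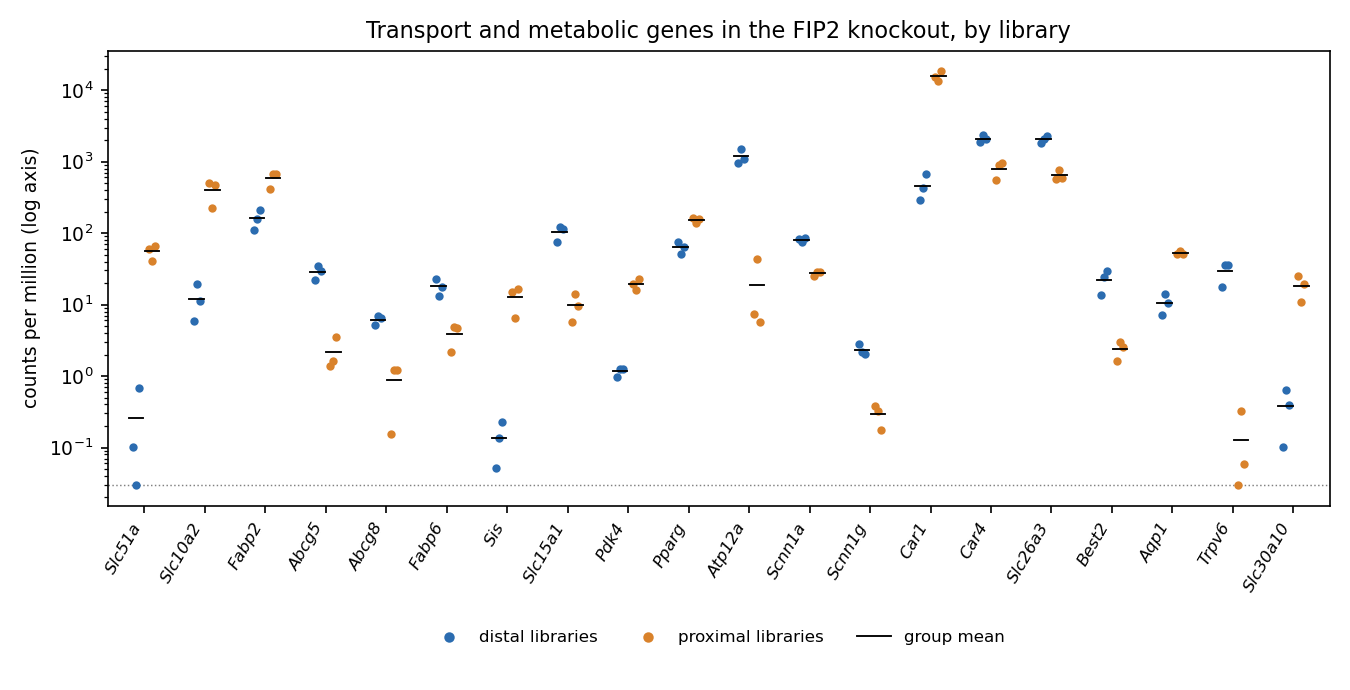
Points are CPM values of single libraries (log axis, values under 0.03 drawn at 0.03) for genes of bile acid and lipid handling, metabolism, ion and water transport, distal in blue and proximal in orange, with a bar at each group mean. The points of the 2 segments do not overlap for any gene shown.

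Some goblet cell and mucus genes differed between the segments, in both directions, and most were not called. The gel-forming mucin gene Muc2 rose by 1.42 ± 0.33, from 3149, 1466 and 3072 CPM distally to 8775, 5260 and 6472 CPM proximally (edgeR adjusted p 0.0078). Library 2 was the lowest of its segment both times. Spdef, a goblet cell factor, rose by 1.04 ± 0.24 and Galnt12, which starts mucin glycans, by 0.96 ± 0.17. Mptx1, a secreted pentraxin (chromosome 1, 174330518 to 174332873, plus strand), was at 1603, 3489 and 1570 CPM distally and 10.9, 56.4 and 6.04 CPM proximally (-6.50 ± 1.03), Sval1 was lower by -4.26 ± 0.64, and the chloride channel regulator Clca4b by -3.48 ± 0.39. The goblet cell and mucus list had 4 of 28 higher and 3 lower (6 and 5 with libraries paired by number), with a median of 0.12. The remaining call, Retnlb, was lost without distal library 1 or 3 or proximal library 2.

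The list of mucin glycosylation and related glycan synthesis genes, not all specific to mucins, was divided. Of 38 tested members 7 were higher and 6 lower (8 and 10 with libraries paired by number), with a median of -0.000866. Gcnt3, which makes the branched core of mucin glycans, rose by 2.12 ± 0.27, from 129, 112 and 156 CPM to 632, 508 and 583 CPM (edgeR adjusted p 2.64e-05). B4galnt1 rose by 1.53 ± 0.23 and the sialyltransferase St3gal1 by 1.76 ± 0.31. B3gnt7, which extends sulfated chains, was at 251, 311 and 282 CPM distally and 34.8, 44.5 and 32.9 CPM proximally (-2.91 ± 0.35). B4galnt3 (-2.12 ± 0.21) and St3gal6 (-2.63 ± 0.37) were lower, and so was the brain-type sialyltransferase St8sia5 (-7.07 ± 0.82), which is not on the list.

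Enteroendocrine genes split by hormone. Nts (chromosome 10, 102481756 to 102490486, minus strand) stood at 59.5, 55.5 and 97.9 CPM proximally and at 0.517, 0.0899 and 0.565 CPM distally, a rise of 7.54 ± 0.69 (edgeR adjusted p 5.79e-07). Secretin (Sct) rose by 2.49 ± 0.33, the prohormone convertase Pcsk1 by 2.14 ± 0.27, and the granule proteins Chga by 1.80 ± 0.27 and Chgb by 1.52 ± 0.24. Insl5, the insulin-like peptide of distal L cells, was lower, at 51.1, 75.2 and 42.9 CPM distally and 9.40, 12.5 and 3.20 CPM proximally (-2.76 ± 0.51), and peptide YY (Pyy) was lower by -1.09 ± 0.24. The substance P gene Tac1 was at 117, 76.4 and 54.7 CPM distally and 30.4, 18 and 12 CPM proximally (-2.04 ± 0.31). Gcg, the glucagon gene of the same L cells, had overlapping libraries (0.46 ± 0.26). Of 26 tested members 7 were higher and 4 lower, the granin gene Scg2 (-2.40 ± 0.54, named after its values were seen) being the last of these, with a median of 0.65. In bulk RNA, fewer cells of a type and less RNA per cell cannot be told apart, for these and all other cell type genes.

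Antimicrobial genes gave some of the steepest differences in both directions. Reg3g, a lectin that kills Gram-positive bacteria, stood at 781, 1095 and 807 CPM proximally and 42.2, 35 and 36.2 CPM distally (4.56 ± 0.57; edgeR adjusted p 2.36e-05). Its close relative Reg3b rose by 5.76 ± 0.80 over a wide proximal range of 1962 to 6821 CPM. Tgm3, a transglutaminase that hardens mucus, was at 242, 466 and 245 CPM distally and 1.53, 5.89 and 1.28 CPM proximally (-6.77 ± 0.77). The protease inhibitor Slpi differed by -4.72 ± 0.48, with distal library 3 at 113 CPM and the other 2 at 36.0 and 35.9 CPM. The cytokine Il18 was lower by -2.01 ± 0.32 and the phospholipase Pla2g2a by -1.82 ± 0.31. Of 31 tested members 5 were higher and 8 lower, with a median of -0.47. The 5 became 2 without distal library 3 or proximal library 2. Ang4, a goblet cell ribonuclease, had 12.2, 26.7 and 11.6 CPM proximally and 2.48, 7.68 and 2.71 CPM distally and was not called (1.95 ± 0.92, adjusted p 0.244), but it was called with libraries paired by number (2.03, adjusted p 0.0414). The other higher members were Itln1, Retnlb and Ang, the last named after its values were seen. Itln1 was called only with all libraries or without proximal library 3, while Retnlb and Ang were both lost without distal library 1 or 3 or proximal library 2.

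In the FIP2 knockout the called lymphocyte markers were higher proximally. The 20 markers of T cells and innate lymphocytes summed to 172 to 214 CPM in proximal and 43.0 to 62.7 CPM in distal libraries, no marker was at 0 in a whole segment, and 13 were called higher and 0 lower, with a median of 1.60. Gzma, a granule protease of cytotoxic cells, stood at 30.5, 35.3 and 46.2 CPM proximally and 8.42, 7.24 and 4.97 CPM distally (2.44 ± 0.28; edgeR adjusted p 1.04e-05). Cd8a rose by 1.82 ± 0.25, Gzmb by 2.30 ± 0.38, Cd3g by 1.91 ± 0.36, the receptor gene Klrd1 by 1.88 ± 0.37 and Cd3e by 1.54 ± 0.32. Plasma cell transcripts rose too: the IgA heavy chain Igha was at 326, 213 and 276 CPM proximally and 28.6, 29.3 and 15.8 CPM distally (3.47 ± 0.64), the light chain Igkc rose by 3.18 ± 0.71 and Jchain by 3.43 ± 0.77. The B and plasma cell markers, with a median of 0.20, summed to 612 to 892 CPM in proximal and 245 to 263 CPM in distal libraries. Of 15 tested, 4 were higher, 0 lower and 11 not called. Iglc1 was the last of the 4, a call that no fit with 1 library left out kept. In wild type the same markers had 0 higher and 8 lower, with a median of -1.79. The FIP1 knockout also had 0 higher and 8 lower, with a median of -2.02. Tested gene by gene, the segment difference of the FIP2 knockout was called different from wild type for 0 of these markers. Against the FIP1 knockout 2 were called, both higher, beside 0.113% of all tested genes. The T cell and innate lymphocyte markers had 7 higher and 0 lower in wild type, with a median of 0.94. In the FIP1 knockout they had 5 higher and 0 lower, with a median of 0.79. For 0 of them was the segment difference of the FIP2 knockout called different from either genotype. Whether the genotypes differ over either list as a whole was not tested.

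Markers of other cell types were summed in the same way. The macrophage and dendritic cell list had 0 of 17 called, at 75.9 to 182 CPM proximally and 136 to 269 CPM distally. The fibroblast list had 0 of 15 called, at 46.4 to 93.3 and 24.4 to 49.2 CPM. Smooth muscle markers summed to 62.1 to 72.9 CPM proximally and 35.9 to 58.9 CPM distally, endothelial markers to 7.96 to 14.8 and 7.91 to 11 CPM, and squamous epithelium markers to 26.5 to 54.7 and 14.4 to 69.4 CPM. The neutrophil and mast cell list was 21.1 to 21.7 CPM proximally and 238 to 294 CPM distally, but almost all of that was Ly6g, at 269, 277 and 221 CPM distally and 7.87, 6.47 and 2.73 CPM proximally (-5.50 ± 0.43; edgeR adjusted p 1.01e-07). The mast cell protease Cma1 was lower by -4.10 ± 0.83, and S100a8 (-1.77 ± 0.52) was called lower only with all 6 libraries and without pairing. Whether these cells contribute to the differences of epithelial genes was not tested.

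**Figure D4:**
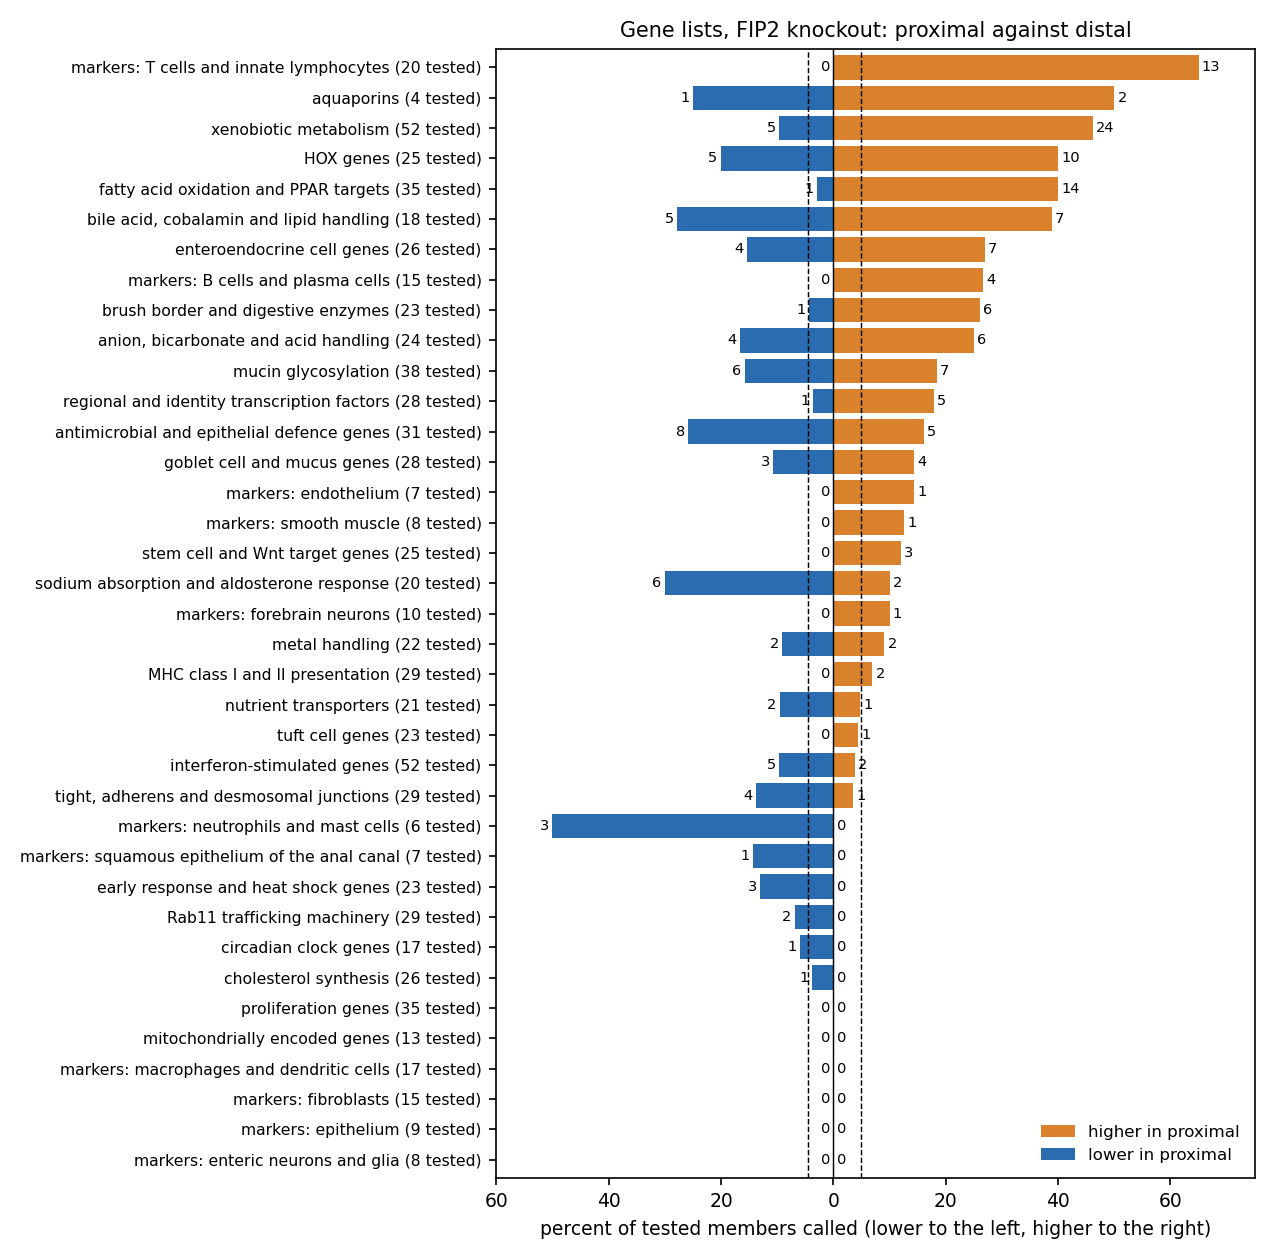
Bars give, for each gene list with at least 4 tested members, the percentage of its tested members called higher in proximal colon (orange, right) and lower (blue, left), with the number called beside each bar; the dashed lines mark the shares over all tested genes, 4.99% and 4.49%. Xenobiotic metabolism and the T cell markers reach far to the right, HOX genes to both sides, and proliferation genes have no bar.

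Of interferon-stimulated genes 13.5% were called, and of MHC genes 6.90%, beside 9.47% of all tested genes. Of 52 interferon-stimulated genes 2 were higher and 5 lower, with a median of -0.11, and with libraries paired by number 4 were higher. Gbp2, a guanylate-binding protein, was at 289, 279 and 162 CPM distally and 32.7, 85.2 and 62.1 CPM proximally (-2.02 ± 0.41; edgeR adjusted p 0.00259), and Gbp7 was lower by -1.15 ± 0.23. Irf9, Gbp3 and Ifi27, the last named after its values were seen, made up the rest of the 5, and each was lost without distal library 2 or proximal library 3. Neither of the 2 higher calls, Ifit1 and Gbp9, held without distal library 2 or 3 or proximal library 2 or 3, and the 5 became 2 without distal library 2 or proximal library 3. Of 29 MHC genes 2 were higher, the thymus leukaemia antigen gene H2-T3 by 2.34 ± 0.25 and H2-Q2 by 1.19 ± 0.25, and 0 were lower. Both belong to a family of near-identical class I genes.

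The remaining groups are read beside the same share. Of 35 proliferation genes 0 were called by edgeR, with a median of 0.18, and Mki67 stood at 250 ± 29.3 CPM distally and 279 ± 28.2 CPM proximally (SD, n = 3). Stem cell and Wnt target genes had 3 of 25 higher: Cd44 by 1.86 ± 0.31, Tnfrsf19 by 3.21 ± 0.55 and Prom1 by 1.20 ± 0.27. Lgr5, the stem cell receptor, had overlapping libraries (0.93 ± 0.37), with proximal library 1 at 15.4 CPM and the rest at 4.13 to 5.44 CPM. Early response and heat shock genes were lower in 3 of 23 cases, Fosb by -2.62 ± 0.46, Egr1 by -1.53 ± 0.37 and Fos by -0.89 ± 0.26 (7 lower with libraries paired by number). Without distal library 2 or proximal library 1, Fosb alone was called. Junction genes had 1 of 29 higher and 4 lower, with Cldn8, a claudin that seals against sodium, at 136, 190 and 122 CPM distally and 19.6, 36.6 and 18.5 CPM proximally (-2.58 ± 0.52). The desmosomal linker Evpl was lower by -1.28 ± 0.22. Marveld3 and Tjp1 were the other lower members and Cldn2 the higher one. The 4 became 2, and the 1 became 0, without distal library 1 or 3 or proximal library 3. The 13 mitochondrially encoded genes had 0 called by edgeR, or 3 higher with libraries paired by number. Tuft cell and clock genes had 1 call each, Nrgn higher and Npas2 lower, and 2 and 3 with libraries paired by number. Nrgn was lost without distal library 1 or 2 or proximal library 2, and Npas2 without distal library 1 or proximal library 3.

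Of the Rab11 machinery, to which the deleted gene belongs, 2 of 29 tested genes were called. That share, 6.90%, was below the 9.47% of all tested genes. Myo5c, a class V myosin, was at 459, 374 and 422 CPM distally and 147, 172 and 144 CPM proximally (-1.44 ± 0.17; edgeR adjusted p 1.44e-05), and Rab11fip4 was lower by -1.14 ± 0.24. Rab11fip1 (132 ± 27.7 CPM proximally and 133 ± 17.6 CPM distally), Rab11a, Rab25 and Myo5b were not called. The median of the list was -0.10.

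Some of the largest falls lay outside these lists. Casp14, a caspase of skin differentiation (chromosome 10, 78711991 to 78718294, minus strand), was at 29.0, 30.2 and 27.1 CPM distally with no proximal count, at least 433-fold lower. The membrane protease Tmprss13 (-6.93 ± 0.81) and the creatine transporter Slc16a12 (-6.75 ± 0.87) were lower as well. Pancreatic enzymes were a separate case that rested on distal library 1: Pnlip was at 28.1, 0.494 and 0.961 CPM distally with no proximal count, Ctrb1 at 36.4, 0.539 and 1.47 CPM, Cela2a at 24.3, 0.449 and 0.678 CPM and Pnliprp1 at 11.3, 0.719 and 0.452 CPM. Without that library none of the 4 was called (edgeR adjusted p 0.218, 0.183, 0.206 and 0.297), and without proximal library 3 none was called either (0.0942, 0.0738, 0.0558 and 0.106). A list of 20 pancreatic acinar enzymes, written after these values were seen, summed to 430 CPM in distal library 1, 199 and 171 CPM in the other 2, and 59.9 to 72.5 CPM proximally.

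The segment difference of the FIP2 knockout was then set beside that of wild type, from other libraries of the same fit. In wild type 8.96% of tested genes were higher proximally and 7.39% lower, 16.4% in sum. Of the 1676 genes called in the FIP2 knockout, 1111 were called in wild type in the same direction (66.3% of the FIP2 calls in both, with 8 opposite, and 38.4% of the 2893 wild-type calls). Across genes the differences correlated at r = 0.648 (rho = 0.486, n = 17692 genes, which are not independent). The difference between the segment differences was tested directly and was called for 58 genes (0.328%), 13 of them higher (0.0735%) and 45 lower (0.254%) in the FIP2 knockout. Mitochondrially encoded genes made up 18.1% to 32.3% of counts in wild-type and 11.2% to 20.1% in FIP2 knockout libraries, and without these genes the test called 57.

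Some genes called in that test had opposite or missing segment differences, while others, such as Fxyd4 and Trpv6, were lower proximally in both genotypes. Of the 58 genes, 8 were called between the segments in both genotypes in opposite directions. Clca4b was at 5.39 CPM distally and 12.7 CPM proximally in wild type, against 3258 and 291 CPM in the FIP2 knockout, and its segment difference was lower than that of wild type by -4.70 ± 0.55 (edgeR adjusted p 0.000864). Abcg5 was 17.1 CPM distally and 18.9 CPM proximally in wild type, while in the FIP2 knockout the proximal level was 2.18 ± 1.19 CPM (-3.85 ± 0.57, adjusted p 0.00435). The manganese exporter Slc30a10 averaged 89.2 and 145 CPM in wild type, where the segments were not called apart, and 0.376 and 18.4 CPM in the FIP2 knockout (4.85 ± 0.86, adjusted p 0.0129). Fxyd4 averaged 35.9 CPM distally in wild type and 2.93 CPM in the FIP2 knockout, with proximal means of 0.399 and 0.694 CPM (4.51 ± 0.70). Tac1 averaged 5.18 CPM distally and 5.68 CPM proximally in wild type (-2.18 ± 0.46, adjusted p 0.0478). The largest differences the rule names on the lower side were those of the chemokines Ccl7 (-9.56 ± 1.56), Cxcl5 (-6.16 ± 1.15) and Cxcl1 (-5.90 ± 1.13), and of Lrg1 (-5.96 ± 1.07) and Trpv6 (-5.40 ± 1.15). Ccl7 rests on low counts, at 10.3, 1.17 and 2.49 CPM in distal and 0, 0 and 0.232 CPM in proximal libraries of the FIP2 knockout. On the higher side they were Cyp2f2 (6.24 ± 0.97), Slc28a3 (3.93 ± 0.59) and Lsp1 (3.77 ± 0.72), beside Fxyd4 and Slc30a10. With each of the 12 libraries of the compared genotypes left out in turn, Clca4b, Abcg5, Slc30a10, Fxyd4, Cyp2f2, Slc28a3 and Ccl7 were called every time. The call of Lrg1 was lost without wild-type distal library 1 or 2 or proximal library 2 (adjusted p 0.0501 to 0.0602), and that of Cxcl5 without FIP2 proximal library 2 or 3 or wild-type distal library 2 or 3 (0.0508 to 0.0842). Cxcl1 was lost without FIP2 distal library 2, FIP2 proximal library 2 or 3, wild-type distal library 2 or 3 or wild-type proximal library 2 (0.0522 to 0.0908), and Lsp1 without FIP2 distal library 1 or 3, FIP2 proximal library 2 or 3, wild-type distal library 3 or wild-type proximal library 3 (0.0534 to 0.0761). Trpv6 kept its call only without FIP2 distal library 1 or wild-type proximal library 1 or 2, and otherwise reached adjusted p of up to 0.225. Tac1 kept its call only without FIP2 distal library 3, FIP2 proximal library 1 or wild-type proximal library 2, with adjusted p otherwise up to 0.139. The 58 became 33 without wild-type distal library 2, 37 without FIP2 distal library 3, 35 without FIP2 proximal library 1 or 2 and 38 without FIP2 proximal library 3.

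Among named segment markers, no difference from wild type was called for Hoxb13 (0.38), Osr2 (-0.06), Slc10a2 (-0.41), Car1 (1.07) or Atp12a (4.38 ± 1.12, adjusted p 0.119). A p that misses the threshold does not show that these differences were equal.

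**Figure D5:**
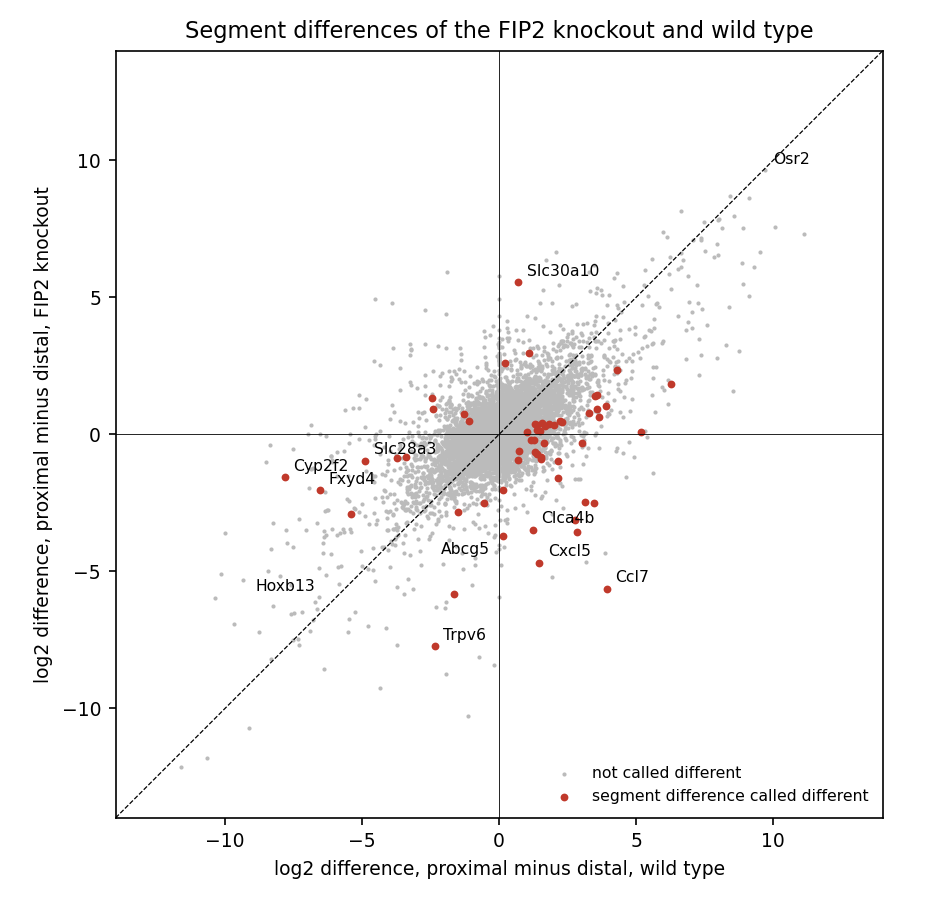
Each point is a tested gene; the x axis is the log2 difference between proximal and distal colon in wild type and the y axis that in the FIP2 knockout, from separate libraries. Red points are the 58 genes whose segment difference was called different, Clca4b, Abcg5 and Slc30a10 among them, and the dashed line marks equal differences.

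Beside the FIP1 knockout the test called 20 genes (0.113%), 19 with a higher (0.107%) and 1 with a lower (0.00565%) segment difference in the FIP2 knockout. In the FIP1 knockout itself 2.94% of tested genes were higher proximally and 3.65% lower, 6.6% in sum, and 796 genes were called in both knockouts in the same direction (47.5% of FIP2 and 68.2% of FIP1 calls lie in both, with 8 opposite). Ggta1, which makes the alpha-galactose epitope that mice carry and humans lack (chromosome 2, 35400179 to 35463231, minus strand), had 209, 144 and 252 CPM in proximal and 1.86, 1.39 and 2.77 CPM in distal libraries of the FIP2 knockout (6.66 ± 0.54). In the FIP1 knockout it was at 0.869 to 2.29 CPM proximally and 1.48 to 3.0 CPM distally, and in wild type at 0.225 to 3.19 and 0.0615 to 0.669 CPM, so that only the proximal FIP2 knockout libraries were above 4 CPM. The difference from the FIP1 knockout was 7.56 ± 0.76 (edgeR adjusted p 0.000107), and that from wild type, 4.59 ± 1.32, was not called (adjusted p 0.170) but was called without wild-type proximal library 2 (6.28, adjusted p 0.0233). Ermap, an erythroid membrane protein gene (chromosome 4, 119175457 to 119190011, minus strand), showed the reverse: 10.5, 20.6 and 21.4 CPM in distal FIP2 knockout libraries, and at most 0.501 CPM in any library of the other groups or the proximal FIP2 knockout (-9.79 ± 1.57, adjusted p 0.0201). Hoxb6 had a larger segment difference than in the FIP1 knockout by 2.92 ± 0.51 (adjusted p 0.0257), and Igha by 4.69 ± 0.87 (adjusted p 0.0388), with FIP1 knockout means of 264 CPM distally and 114 CPM proximally. The remaining genes the rule names were Chst3 (6.31 ± 1.13), the B cell marker Ms4a1 (3.93 ± 0.76), Klhl6 (3.34 ± 0.61) and the sialyltransferase St8sia4 (3.15 ± 0.60). Ggta1 was the only named gene called with each of the 12 libraries left out in turn. The other 7 each lost the call without FIP1 distal library 1 or 3, FIP1 proximal library 1 or FIP2 proximal library 3, and without 5 to 10 libraries in all, with adjusted p between 0.0509 and 0.226. The 20 became 1 without FIP2 proximal library 3, FIP1 distal library 1 or 3 or FIP1 proximal library 1. They became 2, 6 and 9 without FIP2 distal library 1, 2 and 3, 10 without FIP2 proximal library 2, and 58 without FIP1 distal library 2.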

How the data were processed

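Per the labels' protocols, colonic epithelial cells were loosened in EDTA, and poly-T selected RNA was sequenced in reads of 150 nucleotides. The authors deposited a table of raw counts per gene and a table of FPKM (counts scaled to gene length and library total). HTSeq 0.6.1, STAR 2.5, TopHat and DESeq2 appear in the submitters' processing notes, with the builds mm10 and GRCm38; whether counting used strand is not given in the sources used here. Positions are from GENCODE M21 (GRCm38), where 98.3% of gene IDs have the same position.

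The deposited counts of all 18 libraries (6 groups) entered 1 edgeR 4.0.16 quasi-likelihood fit in R 4.3.3, with TMM scaling and filterByExpr. Proximal minus distal in the FIP2 knockout, and its difference from the same contrast in wild type and FIP1 knockout, were tested with Benjamini-Hochberg adjustment. The script was tested on simulated data. Alternatives were RLE scaling, other filters, a fit to the compared genotypes alone, DESeq2 1.42.0, limma 3.58.1 on log2 of the deposited FPKM plus 1 or 0.1, no mitochondrially encoded genes, and each library left out. Library numbers as a block were another. Same-numbered FIP2 knockout libraries deviated together (correlations of deviations from the group mean 0.355, 0.200 and 0.242, against at most 0.0418 between different numbers), so the numbers were taken to pair them. The main test left these pairs out, and only values given as paired by number or from the block use them. The pairing comes from the data, not the labels. It did not hold for every number in wild type (-0.0816, 0.110 and 0.169) or FIP1 knockout (0.200, 0.175 and 0.0683).

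Named genes were 35 chosen genes, the 15 largest called rises and falls among protein-coding genes averaging 1 CPM or more with libraries apart, up to 6 members of each list by adjusted p, and the 5 largest called each way in each difference between genotypes. The members and lists were chosen with earlier results of these data known. Some of the genes this rule names are not reported here.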

Additional observations from a re-analysis of the deposited data

Results flagged for a closer look

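These genes were singled out because the test of the difference between segment differences was called by edgeR; groups of 3 libraries are too small for a check of single outlying libraries. All values are log2 differences. For 16 named genes the segment difference of the FIP2 knockout differed from that of wild type. Higher and lower refer here to that segment difference, proximal minus distal, and not to the level of the gene. The chemokine genes Ccl7 (-9.56), Cxcl5 (-6.16) and Cxcl1 (-5.90) and the secreted glycoprotein gene Lrg1 (-5.96) were lower, as were the calcium channel Trpv6 (-5.40), Clca4b (-4.70), the sterol transporter Abcg5 (-3.85) and the substance P gene Tac1 (-2.18). Not given above were the carboxylesterase Ces2f (-4.19), which kept its call only without FIP2 distal library 1 or 3, wild-type distal library 3 or wild-type proximal library 2, H2-T3 (-1.95), which kept it with every library left out in turn, and, on the higher side, B3gnt7 (2.49), which kept it only without FIP2 proximal library 3, wild-type distal library 3 or wild-type proximal library 1 or 2. The cytochrome gene Cyp2f2 (6.24), the manganese exporter Slc30a10 (4.85), Fxyd4 (4.51), the nucleoside transporter Slc28a3 (3.93) and Lsp1 (3.77) were higher.

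For 8 named genes the segment difference of the FIP2 knockout differed from that of the FIP1 knockout, with higher and lower meant in the same way. Ermap was lower (-9.79). Ggta1 (7.56), Chst3 (6.31), Igha (4.69), Ms4a1 (3.93), Klhl6 (3.34), St8sia4 (3.15) and Hoxb6 (2.92) were higher, and of these 8 only Ggta1 kept its call with every library of both knockouts left out in turn, the others losing it without FIP2 proximal library 3, FIP1 distal library 1 or 3 or FIP1 proximal library 1.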

How the results depend on the processing

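The 1676 genes called between the segments stayed within 1.5 times that number under most alternatives. The exceptions were a filter of at least 10 CPM in 3 libraries (1021, with fewer genes tested) and the fit without proximal library 3 (1069). Any other library left out gave 1237 to 1385. For the 178 genes named in that comparison, 2544 of 2798 alternative values kept the call, 244 lost it, 10 gained it and 0 reversed, over 48 genes. With the replicate block the count was 2138, of which 1626 were shared; beside the values printed with pairing above, it changed no other named gene's call. Of 1216 alternative counts for gene lists 223 moved by more than 1.5 times.

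The 58 genes whose segment difference differed from wild type became 483 without a filter on low counts and 202 with the replicate block. They became 251 with DESeq2 and 37 with limma on log2(FPKM + 0.1). With 1 library left out they were 33 to 75. The share of higher calls was 22.4%, but 41.2% without a filter, 35.9% with DESeq2, and 37.9% (25 higher, 41 lower) and 45.7% (32 and 38) with limma on log2(FPKM + 1) with and without a filter. The 20 genes whose segment difference differed from the FIP1 knockout became 394 without a filter and 7 at 10 CPM. They became 53 in a fit to the 2 knockouts alone, 59 with the replicate block and 188 with DESeq2. With limma on log2(FPKM + 1) they were 56 and 73 with and without a filter, and 1 library left out gave 1 to 58. The cause of these changes was not tested. At an unadjusted p under 0.05 the 3 tests had 3507, 1778 and 1133 genes.

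With the block, Trpv6 no longer passed against wild type (adjusted p 0.0709) and Atp12a did (3.84, adjusted p 0.0197). Differences on the log2(FPKM + pseudocount) scale understate low genes. With 3 libraries a group and 12408843 counts in the shallowest, a gene under the floor of 3 counts over a segment (0.0664 CPM proximally, 0.0510 CPM distally) cannot be told from 0.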

Other observations

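Classes of transcripts differed in how often they were called between the segments of the FIP2 knockout, beside 9.47% of all tested genes. Variable gene segments of immunoglobulins had 27 of 63 tested members higher in proximal colon and 0 lower by edgeR. They are near-identical copies, so single segments are uncertain. Long intergenic noncoding RNAs had 15 higher and 26 lower of 555, and genes annotated as antisense had 9 higher and 25 lower of 788, where counting without strand cannot tell a gene from its antisense partner. Cpb2, a carboxypeptidase gene of liver and plasma, was at 1.55 to 3.14 CPM proximally and at most 0.0517 CPM distally, a rise of 6.66 ± 0.87. None of these differences between classes was tested.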
